A study of Mus musculus with 12 samples.

Results

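The genes described here are 10 genes of the liver X receptor (LXR) pathway and of lipid efflux in bone marrow-derived macrophages (BMDMs): Nr1h2, Nr1h3, Abca1, Abcg1, Apoe, Mylip, Srebf1, Pltp, Pparg and Lpl. They were chosen by symbol, with earlier results of these data known. All 10 were found among the 23997 gene names measured and passed the filter on low values. RNA-seq was performed on WT and Pim1-/- BMDMs of the C57BL/6 strain. Each genotype was left untreated or given LPS, a component of bacterial cell walls, at 100 ng/ml for a period of 4 h, which makes 4 groups and 12 libraries, 3 per group. The cells came from the femurs and tibias of male mice aged 8 to 10 weeks and were cultured with 10 ng/ml human M-CSF for 7 d. The Pim1-/- mice were made with CRISPR-Cas9 and carry a deletion of exons of the Pim1 kinase gene in all cells, so untreated and LPS-treated Pim1-/- cells share the deletion and untreated and LPS-treated WT cells share its absence. The labels do not say whether the replicates of a group came from separate mice or cultures, so p-values measure only the spread between these libraries, which may be technical.

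LXRα, encoded by Nr1h3, and LXRβ, encoded by Nr1h2, are nuclear receptors that bind oxysterols and act on DNA as dimers with retinoid X receptors (RXRs). In macrophages loaded with cholesterol, active LXR raises a set of genes that pass cholesterol out of the cell: the transporters Abca1 and Abcg1, the lipoprotein Apoe and the phospholipid transfer protein Pltp. It also raises Mylip, a ubiquitin ligase that limits lipoprotein uptake, and Srebf1, the master regulator of fatty acid synthesis. Pparg encodes a fatty acid-sensing nuclear receptor that acts upstream of LXR in lipid handling, and Lpl encodes the lipase that releases fatty acids from lipoproteins. Agonists of the toll-like receptors are known to dampen LXR target genes in macrophages.

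The DNA element of LXR is a pair of short sites in the same direction with a gap between them. The letters GGTTANNNNNGGTCA, a form of this element known from textbook promoters, were searched for on both strands in the 250 bases before each RefSeq gene start (GRCm38.p6). Of 32851 such windows, 15 held it, or 0.0457%. The table had 15 windows for 8 of the 10 genes and none for Abcg1 and Lpl, and 2 of these 15 windows, 1 of Abca1 and 1 of Srebf1, held the element. They are shown because both genes are known direct LXR targets whose levels differed between the groups, with the element in capitals as read on the gene's strand, where it appears as its reverse complement. The Abca1 window is chr4:53159896-53160145 on the minus strand, just upstream of the annotated gene, and its element lies 67 to 53 bases before the start. The Srebf1 window is chr11:60210472-60210721 on the minus strand, in an intron of the longer Srebf1 transcripts, and its element lies 182 to 168 bases before the start of a shorter transcript.
Abca1: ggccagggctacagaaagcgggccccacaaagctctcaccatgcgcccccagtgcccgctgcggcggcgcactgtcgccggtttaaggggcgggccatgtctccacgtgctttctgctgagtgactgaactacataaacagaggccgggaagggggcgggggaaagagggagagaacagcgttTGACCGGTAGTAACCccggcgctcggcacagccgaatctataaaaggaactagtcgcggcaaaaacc
Srebf1: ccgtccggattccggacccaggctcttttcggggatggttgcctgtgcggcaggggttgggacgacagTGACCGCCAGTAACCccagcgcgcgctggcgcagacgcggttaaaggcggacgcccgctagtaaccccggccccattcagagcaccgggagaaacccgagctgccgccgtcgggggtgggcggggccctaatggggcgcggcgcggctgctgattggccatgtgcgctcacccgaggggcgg
The perfect repeat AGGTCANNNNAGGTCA, whose sites share letters with the form above, was in none of the 15 windows and in 0.0152% of all windows. A match is a description of letters, and the absence of a match says nothing about binding in these genes. The letters of the first form come from known promoters, and Abca1 and Srebf1 are known LXR targets. Their matches were therefore not independent of the choice of letters. The 2 of 15 windows beside the share of all windows is thus no test of enrichment.

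No column names its unit. The values were taken to be FPKM, in which the fragments of a gene are divided by its length and by the size of the library, so that levels of different genes are compared per length. How the libraries were normalized is not given in the sources used here, and their sums differ between the conditions. Pim1 was lower in every Pim1-/- library but still had signal: it was at 38.1% of WT in untreated cells (8.73 ± 0.752 against 22.9 ± 1.8, SD, n = 3) and at 33.9% after LPS (219 ± 15.6 against 645 ± 17.8), and 1 value per gene does not show which exons it comes from. Replicates agreed, with a lowest Pearson's r of 0.9958 across genes, which are not independent. All 10 macrophage markers checked were detected, with a sum of 28359 to 30414 FPKM in untreated WT and 14654 to 15533 in untreated Pim1-/- libraries, and 31964 to 32427 and 16408 to 18263 after LPS. Of the other markers, 3 of 4 for adipocytes and 3 of 6 for lymphoid cells were at 0 in every library, and none of those 10 genes exceeded 0.0437 FPKM. Dendritic cell markers reached 1.04, neutrophil markers 5.28 and stromal markers 7.51 FPKM at most. In contrast to the macrophage markers, all 8 cell cycle genes checked were called higher in Pim1-/- cells without treatment, with sums of 699 to 783 against 121 to 134 FPKM. After LPS 6 of the 8 were called higher, with sums of 646 to 735 against 348 to 352 FPKM, of which Pcna was the larger part. Mki67 was lower after LPS (26.2 ± 0.173 against 28.6 ± 0.924 FPKM, limma, adjusted p = 0.0435). Of all genes tested, 4.40% were called higher in Pim1-/- cells without treatment and 3.51% after LPS.

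In untreated cells, 3 of the 10 genes were at a much lower level in Pim1-/- than in WT libraries. Apoe, Pltp and Abca1 were 5.03-, 4.85- and 5.61-fold lower in Pim1-/- cells by the ratio of the means, and passed all 3 thresholds used for a call, which are a p under 0.05 and an FDR (Benjamini-Hochberg) under 0.1 with limma and a change above 2-fold. Among the 10581 genes tested, 3.37% were called lower and 4.40% higher. The other 7 genes were at 69.3% to 81.9% of WT in the means, and with these all 10 had an FDR under 0.05, but so had 74.7% of all genes. The median log2 fold change of the 10 was −0.42, against −0.05 over all genes tested. This is a description and no test, since the 10 were chosen with earlier results of these data known. In these bulk samples, fewer cells of a type and less RNA per cell cannot be told apart. The 10 macrophage markers moved with the genes, with a median of −0.74 and 3 of 10 called lower (Csf1r, Fcgr1 and C1qa), although Cd68 had −0.28 and Cd14 −0.06. The part of the markers and of the cell cycle genes in the result was not tested.

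After LPS, Apoe and Pltp were again the genes called lower in Pim1-/- cells, by 4.46- and 4.28-fold, where the background was 5.15% called lower, 3.51% called higher and 77.4% with an FDR under 0.05. Abca1 no longer stood out, at 73.8% of WT. All 10 genes had an FDR under 0.05, but in both directions, with 7 lower and Abcg1, Pparg and Mylip higher. The median was −0.48 against −0.03 over all genes, and the macrophage markers had a median of −0.94 with 4 of 10 called lower (Csf1r, Fcgr1, C1qa and Spi1).

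Of the genes called with LPS, Abca1 was the one also called between the genotypes. In WT cells Pparg, Mylip and Abcg1 fell past the thresholds, where 14.7% of all genes were called lower, 20.1% higher and 89.3% had an FDR under 0.05. In Pim1-/- cells Pparg fell and Abca1 rose, against a background of 10.4% called lower, 14.6% higher and 84.6% with an FDR under 0.05. In each genotype 8 of the 10 genes had an FDR under 0.05. These directions rest on the deposited scale, on which libraries sum to 452511 to 489710 FPKM without treatment and 713307 to 849323 after LPS. If every library was set to the same sum, the median of all genes was −0.67 in WT and −0.58 in Pim1-/- cells, against 0.00 and −0.01 as deposited, and the genes called lower and higher became 3744 and 1188 in WT, against 1556 and 2130 as deposited, and 2811 and 973 in Pim1-/- cells, against 1103 and 1546. The same scaling gave 334 lower and 504 higher between the genotypes after LPS, against 545 and 371, and a median of 0.12, against −0.03.

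The response to LPS differed between the genotypes most for the 2 cholesterol transporters. The difference (Pim1-/- minus WT) was 1.71 on the log2 scale for Abca1 and 1.21 for Abcg1, the only ones of the 10 called, both higher, where 2.24% of all genes were called higher, 4.43% lower and 62.9% had an FDR under 0.05. Mylip and Pparg with 0.64 and 0.63, and Lpl and Nr1h3 with −0.58 and −0.29, had an FDR under 0.05 without reaching 2-fold. No difference was resolved for Apoe, Srebf1, Pltp and Nr1h2, whose 95% intervals ran from 0.01 to 0.34, −0.38 to −0.01, −0.03 to 0.38 and −0.26 to 0.15, with adjusted p-values of 0.0568, 0.0674, 0.122 and 0.613 from limma.

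**Figure D1:**
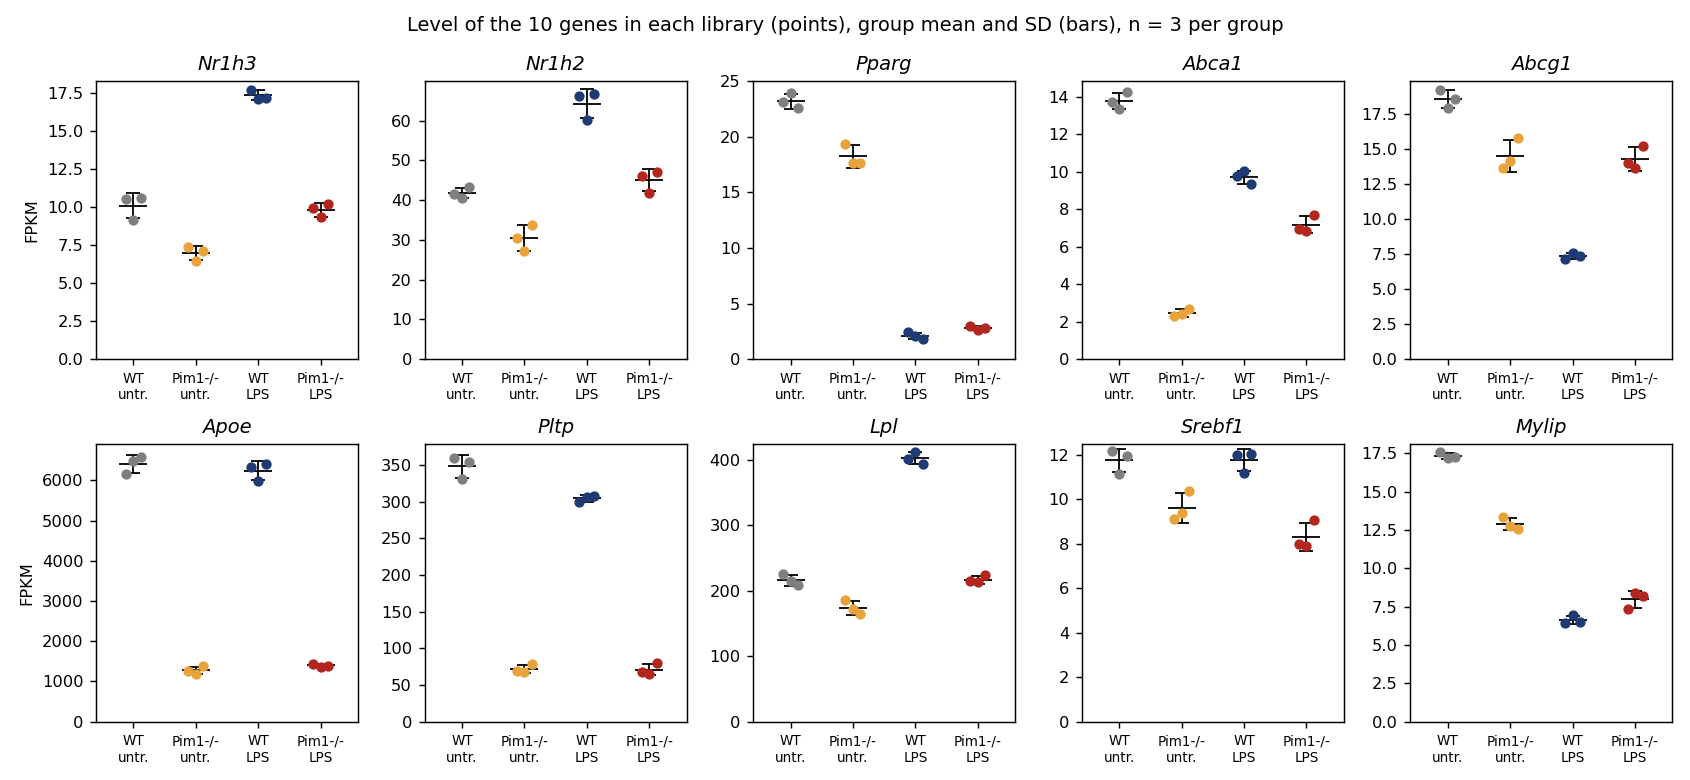
FPKM of the 10 genes in each of the 12 libraries (points) with the group mean and SD (bars, n = 3), on axes that start at 0. Apoe and Pltp are low in all 6 Pim1-/- libraries, Pparg is low in all 6 LPS-treated libraries, and Abca1 is lowest in untreated Pim1-/- cells at 2.28 to 2.68 FPKM.

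**Figure D2:**
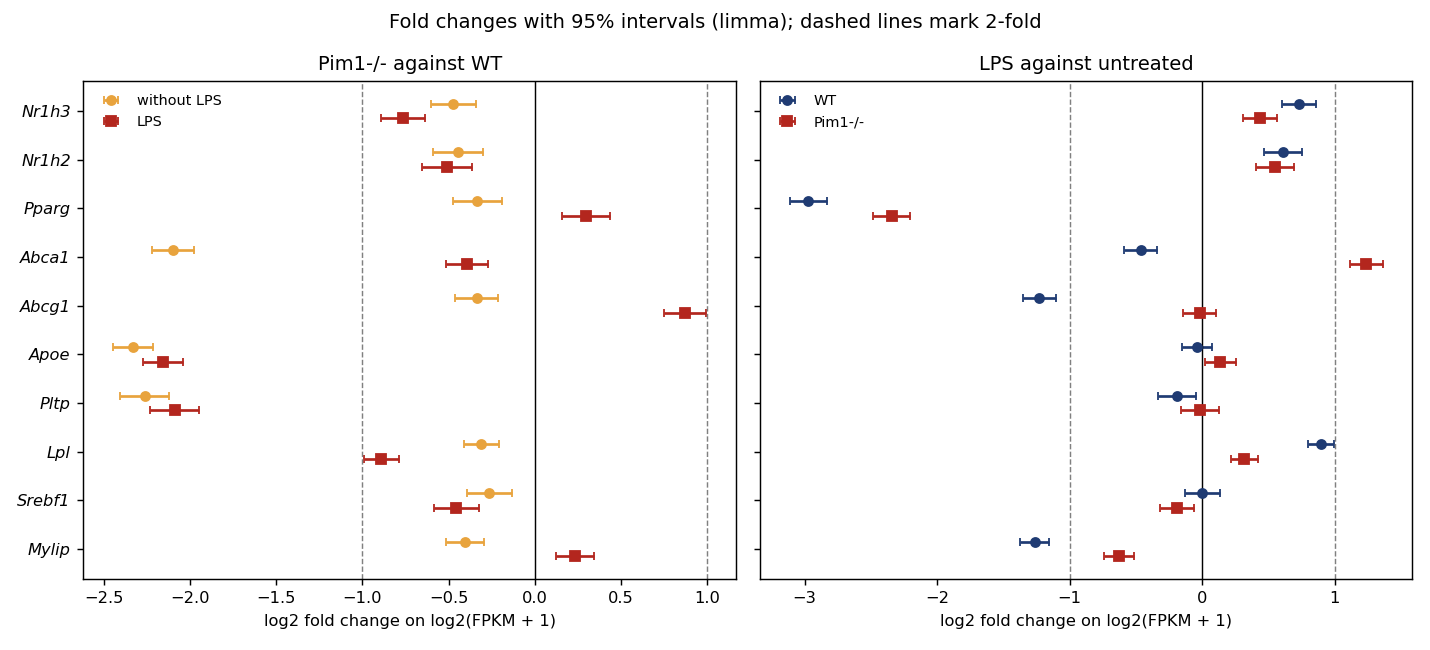
Log2 fold changes on log2(FPKM + 1) with 95% intervals from limma, for Pim1-/- against WT (left) and LPS against untreated (right), with dashed lines at 2-fold. Abcg1 is at −0.34 without treatment and 0.87 after LPS on the left, and Abca1 is at −0.47 in WT and 1.24 in Pim1-/- cells on the right.

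Among the receptors, Nr1h2 was the more abundant in every library, and both were lower in Pim1-/- cells. Nr1h2 (chr7:44549616-44553951, GRCm38, minus strand) was at 41.5, 40.5 and 43.2 FPKM in untreated WT, 30.5, 27.2 and 33.7 in untreated Pim1-/-, 66.1, 60.045 and 66.6 in LPS-treated WT and 46.0, 41.8 and 47.0 in LPS-treated Pim1-/- libraries. The genotypes did not overlap under either condition, with log2 fold changes of −0.45 (SE 0.07, limma, adjusted p = 2.5e-05) without treatment and −0.51 (SE 0.07, adjusted p = 6.2e-06) after LPS. LPS-treated libraries lay above untreated ones in both genotypes, with changes of 0.61 and 0.55, but with libraries set to the same sum these became −0.19 and −0.10, and under quantile normalization the WT change was −0.22.

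Nr1h3 (chr2:91184061-91202834, minus strand) was at 10.5, 9.14 and 10.6 FPKM in untreated WT and at 7.38, 6.47 and 7.10 in untreated Pim1-/- libraries. After LPS it was at 17.7, 17.1 and 17.2 in WT and at 9.91, 9.32 and 10.2 in Pim1-/- libraries, so the LPS-treated Pim1-/- values lay within the untreated WT range. The genotypes did not overlap, with log2 fold changes of −0.47 (SE 0.06, limma, adjusted p = 4.0e-06) and −0.76 (SE 0.06, adjusted p = 1.5e-08). The change with LPS was 0.73 in WT and 0.44 in Pim1-/- cells, and −0.03 and −0.16 with libraries set to the same sum. The ratio of Nr1h3 to Nr1h2 within a library, which a factor per library does not alter, was 0.241 ± 0.0142 in untreated WT, 0.230 ± 0.0171 in untreated Pim1-/-, 0.27 ± 0.0137 in LPS-treated WT and 0.218 ± 0.0041 in LPS-treated Pim1-/- cells (SD, n = 3). The exons of Nr1h3 overlap those of the noncoding Gm13783 on the same strand, so their reads may be shared.

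Pparg (chr6:115360951-115490399, plus strand) showed the largest response to LPS of the 10 genes, in both genotypes. It was at 23.1, 23.9 and 22.6 FPKM in untreated WT and 19.4, 17.6 and 17.7 in untreated Pim1-/- libraries. After LPS it was at 2.39, 2.09 and 1.80 in WT and 2.96, 2.61 and 2.81 in Pim1-/- libraries. Every LPS-treated value lay below every untreated one, and the order of the genotypes, which did not overlap, was opposite under the 2 conditions. Pparg fell by 2.97 on the log2(FPKM + 1) scale in WT (SE 0.07, limma, adjusted p = 4.1e-16) and by 2.34 in Pim1-/- cells (SE 0.07, adjusted p = 1.3e-14). The pseudocount of 1 FPKM understates this, since the means fell 11.1- and 6.53-fold. The LPS-treated WT values rest on the fewest fragments of any of the 10 genes, by estimate 72.2 to 106 per library.

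The efflux transporters Abca1 and Abcg1 differed from each other both between the genotypes and with LPS. Abca1, which passes cholesterol to lipid-poor apolipoprotein, lies at chr4:53030787-53159895 on the minus strand, directly after the window shown above. It was at 13.7, 13.4 and 14.3 FPKM in untreated WT but at 2.28, 2.42 and 2.68 in untreated Pim1-/- libraries. After LPS it was at 9.77, 10.0 and 9.33 in WT and at 6.96, 6.85 and 7.69 in Pim1-/- libraries. Thus the 4 groups did not overlap, and the LPS-treated groups lay between the untreated ones. Abca1 was called lower in untreated Pim1-/- cells (log2 fold change −2.10, SE 0.06, limma, adjusted p = 5.3e-14), and differed by −0.39 (SE 0.06, adjusted p = 1.5e-05) after LPS. LPS raised it in Pim1-/- cells by 1.24 (SE 0.06, adjusted p = 7.4e-12), a 2.92-fold change of the means, while in WT cells it was lower by −0.47 (SE 0.06, adjusted p = 1.3e-06). With libraries set to the same sum, these were 0.72, which is not a call, and −1.21, which is one. Relative to the median of all genes under that scaling they were 1.31 and −0.54.

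Abcg1 (chr17:31057675-31117988, plus strand), which passes cholesterol to HDL, was at 19.2, 17.9 and 18.6 FPKM in untreated WT and 13.6, 14.1 and 15.8 in untreated Pim1-/- libraries. After LPS it was at 7.12, 7.59 and 7.34 in WT but at 14.0, 13.6 and 15.2 in Pim1-/- libraries. The Pim1-/- libraries overlapped between the conditions, while the WT libraries were far apart. Abcg1 fell by 1.23 with LPS in WT (SE 0.06, limma, adjusted p = 6.8e-12), and had a change of −0.02 (95% interval −0.14 to 0.11, adjusted p = 0.764) in Pim1-/- cells. Between the genotypes it was −0.34 (SE 0.06, adjusted p = 8.0e-05) without treatment and 0.87 (SE 0.06, adjusted p = 1.9e-09) after LPS, which is under the 2-fold threshold as deposited and over it, at 1.04, with libraries set to the same sum. The ratio of Abca1 to Abcg1 within a library was 0.743 ± 0.0268 in untreated WT and 0.169 ± 0.00193 in untreated Pim1-/- cells, and 1.32 ± 0.05 and 0.501 ± 0.00394 after LPS (SD, n = 3). Each of the 4 groups occupied its own range of this ratio.

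**Figure D3:**
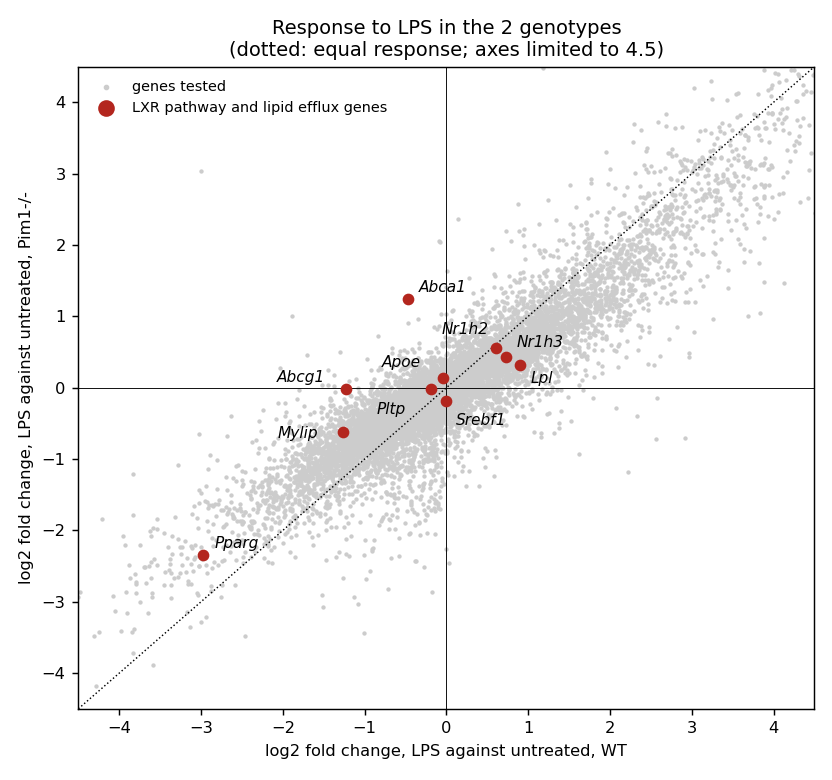
Log2 fold change with LPS in WT (horizontal) against that in Pim1-/- cells (vertical) for the 10581 genes tested (grey; axes limited to 4.5) and the 10 genes (red), with a dotted line of equal response. Abca1 (−0.47 and 1.24) and Abcg1 (−1.23 and −0.02) lie farthest above the line among the 10.

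Apoe and Pltp, which encode secreted proteins of lipoprotein metabolism, differed by genotype far more than with LPS on the deposited scale. Apoe (chr7:19696109-19699188, minus strand), which carries cholesterol out of macrophages, was the most abundant of the 10 genes in every group. It was at 6152, 6486 and 6587 FPKM in untreated WT, 1255, 1194 and 1374 in untreated Pim1-/-, 6339, 5974 and 6406 in LPS-treated WT and 1442, 1367 and 1390 in LPS-treated Pim1-/- libraries. No Pim1-/- library came near the WT range, and the conditions overlapped in each genotype. The log2 fold change between the genotypes was −2.33 (SE 0.05, limma, adjusted p = 8.1e-15) without treatment and −2.16 (SE 0.05, adjusted p = 2.8e-14) after LPS. With LPS it was −0.04 (95% interval −0.15 to 0.08, adjusted p = 0.5) in WT and 0.14 (0.02 to 0.25, adjusted p = 0.0276) in Pim1-/- cells, the last of which became −0.53 with libraries set to the same sum and −0.60 under quantile normalization.

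Pltp (chr2:164839518-164857711, minus strand) was at 360.0, 330.4 and 354 FPKM in untreated WT and 69.8, 67.5 and 78.3 in untreated Pim1-/- libraries. After LPS it was at 299, 307 and 307 in WT and 68.0, 65.6 and 79.6 in Pim1-/- libraries. The genotypes were again far apart, with log2 fold changes of −2.26 (SE 0.07, limma, adjusted p = 1.3e-13) and −2.09 (SE 0.07, adjusted p = 4.5e-13). The change with LPS was −0.19 in WT, without overlap (adjusted p = 0.0137), and −0.02 in Pim1-/- cells, with overlap (adjusted p = 0.805), and the WT change became a call at −1.0 with libraries set to the same sum and at −1.39 under quantile normalization. The exons of Pltp overlap those of Ctsa on the opposite strand, and the strand setting of the counting is not given in the sources used here. Ctsa, a lysosomal protease, was at 333 ± 7.76 FPKM in untreated WT, 277 ± 13.5 in untreated Pim1-/-, 286 ± 4.29 in LPS-treated WT and 266 ± 17.4 in LPS-treated Pim1-/- cells.

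Lyz2, the most abundant macrophage marker, was itself at 26302 ± 1088 FPKM in untreated WT and 13297 ± 518 in untreated Pim1-/- cells. Set against it within each library, Apoe was at 244 ± 13.7 FPKM per 1000 FPKM of Lyz2 in untreated WT and 96.1 ± 10.8 in untreated Pim1-/- cells, and at 233 ± 10.8 and 103 ± 6.7 after LPS (SD, n = 3). Pltp was at 13.3 ± 1.09 and 5.42 ± 0.647 without treatment and 11.4 ± 0.236 and 5.24 ± 0.933 after LPS. Both remained lower in every Pim1-/- library than in any WT library on this scale. Abca1 did so without treatment, at 0.525 ± 0.0379 against 0.185 ± 0.0219, but after LPS it was at 0.363 ± 0.00948 in WT and 0.527 ± 0.0721 in Pim1-/- cells. The choice of Lyz2 was made after its values were seen, and the markers differ widely, with Pim1-/- cells at 95.7% of WT for Cd14, 82.3% for Cd68, 50.6% for Lyz2 and 33.3% for Csf1r without treatment. The same ratio was therefore taken against each of the 10 macrophage markers. Without treatment, Apoe, Pltp and Abca1 were lower in every Pim1-/- library than in any WT library against 10 of 10 markers. After LPS, Apoe and Pltp were so against 9 of 10, the exception being Fcgr1. These counts follow from the levels themselves and are no separate support. Without treatment, Abca1, Apoe and Pltp were at 17.8%, 19.9% and 20.6% of WT, and the lowest marker, Fcgr1, at 29.15%. After LPS, Fcgr1 was at 22.42% of WT, beside 22.43% for Apoe and 23.3% for Pltp. For the other 7 genes without treatment the direction depended on the marker: the mean was lower in Pim1-/- cells against Cd14 and Cd68, and higher against the remaining 8. After LPS, Abcg1, Mylip and Pparg were higher against all 10 markers, while Nr1h2, Nr1h3, Abca1, Srebf1 and Lpl were lower against 2 or 3 and higher in the mean against the rest.

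**Figure D4:**
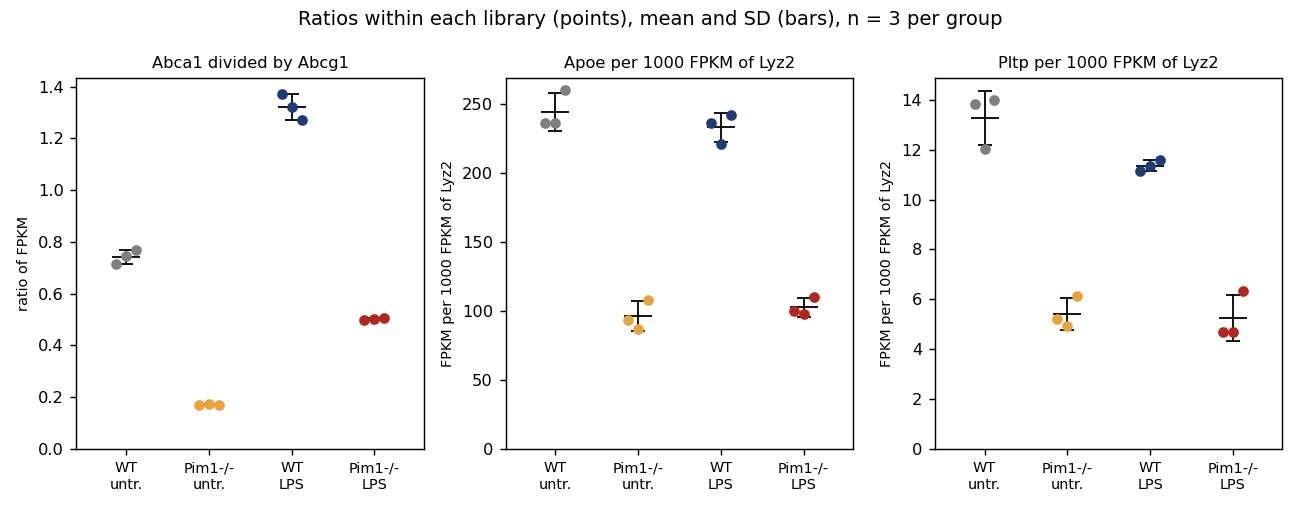
Ratios of FPKM within each library (points) with the group mean and SD (bars, n = 3): Abca1 divided by Abcg1, and Apoe and Pltp per 1000 FPKM of Lyz2. Pim1-/- libraries lie below WT libraries of the same condition in all 3 panels.

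Lpl (chr8:68880491-68907448, plus strand) was at 225, 215 and 208 FPKM in untreated WT and 186, 172 and 165 in untreated Pim1-/- libraries. After LPS it was at 402, 412 and 394 in WT but at 214, 213 and 224 in Pim1-/- libraries, close to the untreated WT level. The genotypes did not overlap under either condition. The log2 fold change was −0.31 (SE 0.05, limma, adjusted p = 2.5e-05) without treatment and −0.89 (SE 0.05, adjusted p = 1.5e-10) after LPS. The change with LPS was 0.90 in WT and 0.32 in Pim1-/- cells as deposited, −0.38 and −0.54 under quantile normalization, and −0.34 in Pim1-/- cells with libraries set to the same sum, so its direction depends on the scale.

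Srebf1 and Mylip, the LXR targets of fatty acid synthesis and lipoprotein uptake, showed smaller differences between the genotypes. Srebf1 (chr11:60199089-60222581, minus strand), whose shorter form starts after the window shown above, was at 12.2, 11.2 and 11.9 FPKM in untreated WT, 9.10, 9.40 and 10.4 in untreated Pim1-/-, 12.0, 11.2 and 12.1 in LPS-treated WT and 7.98, 7.92 and 9.06 in LPS-treated Pim1-/- libraries. The WT libraries overlapped between the conditions, and the genotypes did not. Its log2 fold change was −0.26 (SE 0.06, limma, adjusted p = 0.00112) without treatment and −0.46 (SE 0.06, adjusted p = 6.1e-06) after LPS. With LPS it was 0.00 (95% interval −0.13 to 0.13, adjusted p = 0.999) in WT, or −0.75 with libraries set to the same sum, and −0.19 (adjusted p = 0.00913) in Pim1-/- cells. The gene-level value sums the transcripts, so the form that starts at the element cannot be told apart from the others. Its exons overlap those of Rai1 on the opposite strand, which was at 2.43 ± 0.248 FPKM or less in the group means.

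Mylip (chr13:45389742-45412022, plus strand) was at 17.6, 17.2 and 17.3 FPKM in untreated WT and 13.3, 12.7 and 12.6 in untreated Pim1-/- libraries, and after LPS at 6.46, 6.95 and 6.50 in WT and 7.37, 8.42 and 8.20 in Pim1-/- libraries. As with Pparg and Abcg1, the order of the genotypes was opposite under the 2 conditions, with no overlap in either. The log2 fold change between them was −0.40 (SE 0.05, limma, adjusted p = 4.3e-06) without treatment and 0.24 (SE 0.05, adjusted p = 7.0e-04) after LPS. Mylip fell by 1.26 with LPS in WT (SE 0.05, adjusted p = 1.1e-12), and was lower by −0.63 in Pim1-/- cells (SE 0.05, adjusted p = 1.3e-08), which became a call at −1.24 with libraries set to the same sum.

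Over the 10 genes and 4 groups, the coefficient of variation between replicates ran from 1.15% (Mylip in untreated WT) to 14% (Pparg in LPS-treated WT), with a median of 4.5%. By mean level, the order in untreated WT cells was Apoe, Pltp, Lpl, Nr1h2, Pparg, Abcg1, Mylip, Abca1, Srebf1 and Nr1h3. In untreated Pim1-/- cells Abca1 was last of the 10, and in the LPS-treated groups Pparg was.

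Other genes of the pathway were examined in 7 lists. The 2 genes with the largest change in a list are given with values, and other called genes are named without values, after these were seen. Lrp8, which was not called, is also given with values, likewise after these were seen. None of the 8 LXR partners and corepressors was called between the genotypes, although 7 of 8 without treatment, all lower, and 8 of 8 after LPS had an FDR under 0.05, 6 of them lower, as had 74.7% and 77.4% of all genes tested. With LPS, 3 of 8 were called lower in WT (Rxra, Rxrb and Tbl1xr1) and 2 in Pim1-/- cells (Rxra and Tbl1xr1), and Tbl1x was called higher in both, where 14.7% and 10.4% of all genes were called lower and 20.1% and 14.6% higher. Rxra, like Rxrb an RXR partner of LXR, had the largest change in each genotype. It went from 16.3 ± 0.353 to 1.05 ± 0.0926 FPKM in WT and from 8.33 ± 0.504 to 0.796 ± 0.0182 in Pim1-/- cells (log2 fold changes −3.08 and −2.38). It was followed in WT by Tbl1xr1, a subunit of the corepressor complex, which went from 10.9 ± 0.297 to 2.45 ± 0.0495 FPKM (−1.79). In Pim1-/- cells it was followed by the related subunit Tbl1x, which went from 8.49 ± 0.47 to 22.2 ± 1.49 FPKM (1.29, or 0.68 and no call with libraries set to the same sum).

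Of 11 other LXR target genes tested, 3 (Apoc2, Cd5l and Mertk) were called lower in Pim1-/- cells under each condition and 1, Arl4c, was called higher after LPS. Over all genes, 3.37% and 5.15% were called lower without treatment and after LPS, and 3.51% higher after LPS. Apoc2, the activator of lipoprotein lipase, was at 68.6 ± 1.63 FPKM in untreated WT and 8.71 ± 0.386 in untreated Pim1-/- cells, and at 60.8 ± 2.29 and 9.0 ± 0.845 after LPS (log2 fold changes −2.84 and −2.63). Cd5l, a secreted protein of macrophages, had −1.71 without treatment, and Mertk, a receptor for apoptotic cells, −1.75 after LPS. With LPS, 2 of the 11 were called lower in WT and 3, with the fatty acid synthase Fasn, in Pim1-/- cells, and Rnf145, a ubiquitin ligase, was called higher in both, against 14.7% and 10.4% of all genes called lower and 20.1% and 14.6% higher. The 2 with the largest changes in each genotype were Arl4c, a small GTPase, with −3.93 and −2.21, and the fatty acid desaturase Scd2, with −2.06 and −2.10. Scd2 went from 5.34 ± 0.353 to 0.52 ± 0.0865 FPKM in WT and from 3.99 ± 0.351 to 0.164 ± 0.041 in Pim1-/- cells. Its means fell 10.3- and 24.3-fold, a difference that the pseudocount of 1 FPKM hides at these low levels. Arl4c was the one gene of this list whose response to LPS was called different, by 1.72, from 33.6 ± 0.769 to 1.27 ± 0.0272 FPKM in WT and from 31.3 ± 1.27 to 6.00 ± 0.337 in Pim1-/- cells. Of all genes, 2.24% were called higher and 4.43% lower in this difference.

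PPAR target genes were mixed between the genotypes without treatment and mostly higher in Pim1-/- cells after LPS. Of 5 tested, 3 were lower and 2 higher without treatment with an FDR under 0.05, and 4 were higher and none lower after LPS, with medians of −0.14 and 0.64. Of all genes tested, 74.7% and 77.4% had an FDR under 0.05, so the number passing was near the background. Among these 5, Cd36, a scavenger receptor that takes up fatty acids, was called higher in Pim1-/- cells without treatment (1.183), and Cd36 (1.29) and the fatty acid carrier Fabp4 (1.11) were called higher after LPS, with none called lower. Of all genes, 4.40% were called higher without treatment and 3.51% after LPS. Fabp4 was at 204 ± 12.6 FPKM in untreated WT and 136 ± 11.6 in untreated Pim1-/- cells, and at 74.0 ± 1.47 and 162 ± 14.2 after LPS, and its response differed by 1.69. With LPS, Fabp4 and Angptl4, an inhibitor of lipoprotein lipase, were called lower in WT (−1.45 and −1.42), and none of the 5 was called in Pim1-/- cells. Among all genes, 14.7% were called lower and 20.1% higher with LPS in WT, and 10.4% and 14.6% in Pim1-/- cells. Angptl4 also fell in Pim1-/- cells (−0.84), from 0.98 ± 0.242 to 0.102 ± 0.0533 FPKM, and in WT from 2.18 ± 0.373 to 0.182 ± 0.0596. The pseudocount of 1 FPKM understates both falls, which were 9.58- and 11.95-fold in the means. In the PPAR family, of 2 genes tested, Ppard, a fatty acid receptor, fell with LPS in both genotypes (−1.91 and −1.182), while the coactivator Ppargc1b rose in WT (1.5), was called lower in Pim1-/- cells after LPS (−1.30) and differed in its response by −1.30. After LPS, 5.15% of all genes were called lower between the genotypes. The difference in response was called higher in 2.24% and lower in 4.43% of them.

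Among 9 genes of cholesterol uptake, release and storage, Msr1, the scavenger receptor A, was called higher in untreated Pim1-/- cells (1.73), and none was called between the genotypes after LPS. Over all genes, 4.40% were called higher without treatment. After LPS 9 of 9 had an FDR under 0.05, 3 lower and 6 higher, as had 77.4% of all genes. Lrp8, a lipoprotein receptor at low level, was higher in Pim1-/- cells without a call (0.897 untreated and 0.395 after LPS). It was at 1.67 ± 0.097 against 0.434 ± 0.0369 FPKM in WT without treatment, and 0.441 ± 0.036 against 0.0963 ± 0.0336 after LPS. These are 3.85- and 4.58-fold in the means, which the pseudocount of 1 FPKM understates. Msr1 was at 28.8 ± 2.5 FPKM in untreated WT, 97.7 ± 8.34 in untreated Pim1-/-, 518 ± 14.5 in LPS-treated WT and 272 ± 23.2 in LPS-treated Pim1-/- cells. With LPS, Msr1 was called higher in both genotypes, as were 20.1% of all genes in WT and 14.6% in Pim1-/- cells. Scarb1, Soat1 and Nceh1 were called lower in both, and Lipa and Npc1 in WT, which makes 5 of the 9 in WT and 3 in Pim1-/- cells, against 14.7% and 10.4% of all genes. The largest changes were those of Msr1 (4.13 in WT and 1.47 in Pim1-/- cells) and of Nceh1, a cholesterol ester hydrolase (−2.01 and −1.54). The difference in response was −2.66 for Msr1, the 1 gene called in this list, where 4.43% of all genes were called lower. The Msr1 change in Pim1-/- cells fell under 2-fold with libraries set to the same sum (0.81) and under quantile normalization (0.61).

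Of 2 oxysterol enzymes tested, Cyp27a1, which makes 27-hydroxycholesterol, was called lower in Pim1-/- cells under both conditions, with 31.6 ± 3.37 against 3.92 ± 0.327 FPKM without treatment and 9.58 ± 0.165 against 2.87 ± 0.362 after LPS (log2 fold changes −2.73 and −1.46). It fell by 1.62 with LPS in WT, and its response differed by 1.27. Ch25h, which makes 25-hydroxycholesterol, was at 0.301 ± 0.0814 FPKM in untreated WT and 0.773 ± 0.112 in untreated Pim1-/- cells, and at 86.9 ± 6.14 and 23.5 ± 1.21 after LPS. It rose by 6.08 in WT and 3.79 in Pim1-/- cells, was called lower in Pim1-/- cells after LPS (−1.84), and its response differed by −2.29. In the list on maturation and anchoring of lipoprotein lipase, 1 of 3 genes was called between the genotypes, the heparan sulfate proteoglycan Sdc4, lower without treatment (−1.17) and after LPS (−1.84). Of all genes, 3.37% and 5.15% were called lower in these comparisons. With LPS, 14.7% were called lower and 20.1% higher in WT, and 10.4% and 14.6% in Pim1-/- cells. The difference in response was called higher in 2.24% and lower in 4.43% of all genes. Sdc4 rose with LPS by 4.66 in WT and 3.99 in Pim1-/- cells, and Sel1l, which helps the lipase leave the endoplasmic reticulum, rose by 1.02 in WT, or 0.23 with libraries set to the same sum and 0.41 under quantile normalization, neither a call.

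**Figure D5:**
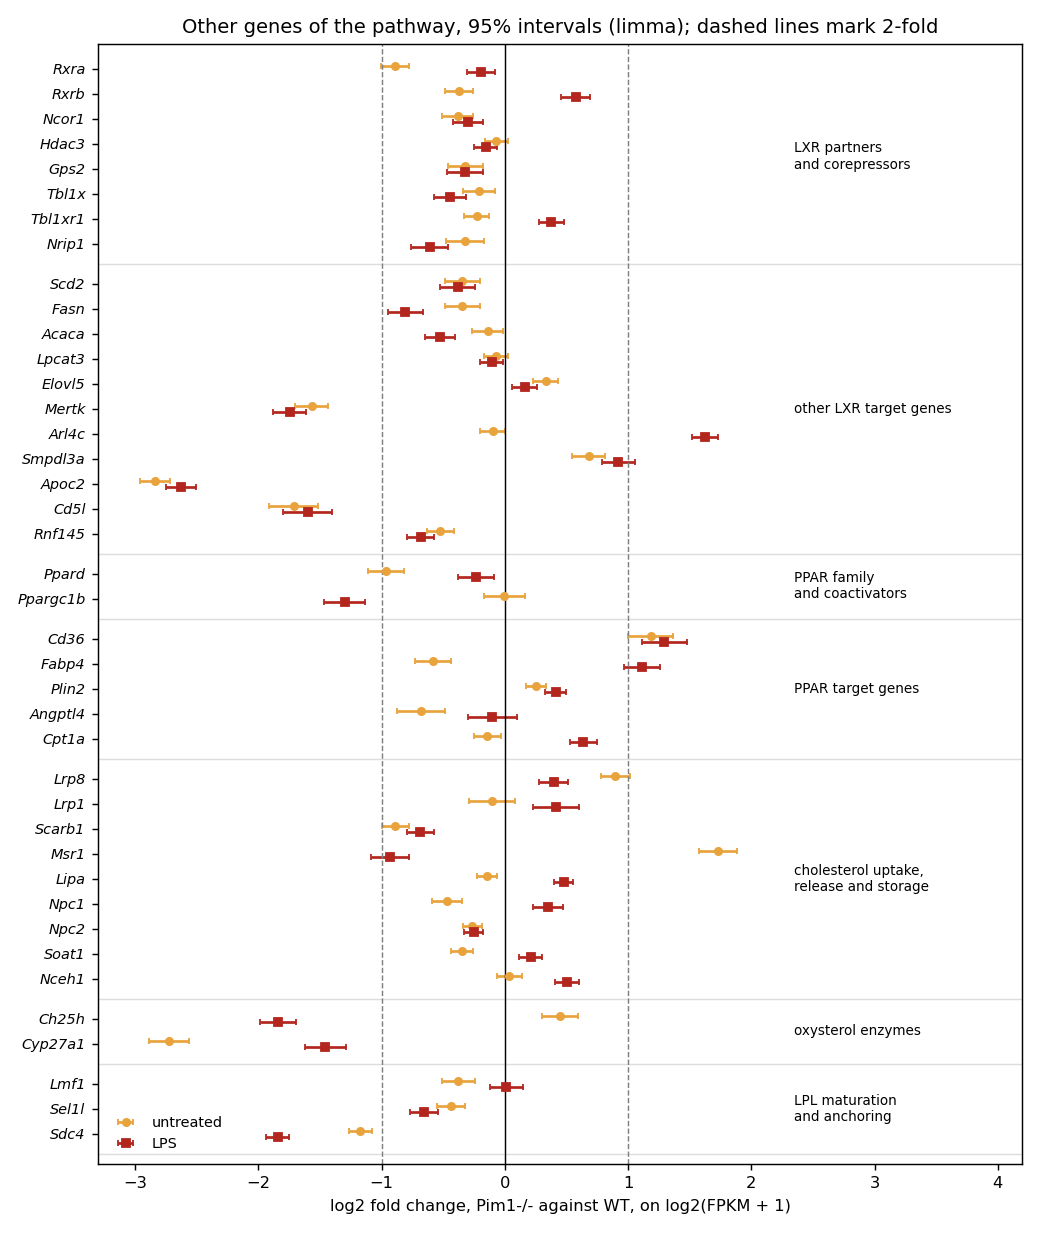
Log2 fold changes between Pim1-/- and WT on log2(FPKM + 1) with 95% intervals from limma for the tested genes of the 7 lists, without treatment (circles) and after LPS (squares), with dashed lines at 2-fold. Apoc2, Cyp27a1, Cd5l, Mertk and Sdc4 lie left of the 2-fold line under both conditions, and Cd36 lies right of it.

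For each of the 10 genes, genes among the 3 with the most similar pattern, taken by Pearson's r on log2(FPKM + 1) over the 12 libraries, are given. The libraries fall in 4 groups of 3, so r mainly reflects the group means. The genes nearest to Apoe were Fxyd2 (r = 0.9976), Apoc2 (0.9972) and Pltp (0.9949), and those nearest to Pltp were Fxyd2 (0.9975), Trf (0.9952) and Apoe. Fxyd2, a subunit of the sodium pump, was at 62.0 ± 2.8 FPKM in untreated WT and 2.24 ± 0.451 in untreated Pim1-/- cells, and Trf, which encodes transferrin, at 162 ± 2.09 and 36.2 ± 1.53. Nearest to Pparg were Ccdc85b (0.9986), Spsb2 (0.9982) and Cebpa (0.9979), a transcription factor of the myeloid and fat lineages that went from 51.1 ± 0.671 to 1.04 ± 0.0491 FPKM with LPS in WT cells. Nearest to Abca1 were Tbc1d2b (0.9893), Pdzk1ip1 and Lpin2, and nearest to Abcg1 were Qars (0.9904), Wdr45 and Nbr1. Nearest to Lpl were Nck2 (0.9962), Hmgcs1 (0.9949), an enzyme of cholesterol synthesis, and B630005N14Rik. Near to Mylip were Ttc38 (0.9957) and Rnf144b (0.9957), and near to Nr1h2 were AI837181 (0.9917) and Sp2. Nr1h3 was most like Akt2 (0.9927), Ifitm6 and Srgap2, and Srebf1 most like Cherp (0.9855), Mlf2 and Atn1.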

How the data were processed

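RNA was measured in 12 libraries made with a stranded mRNA kit. Per the labels, the authors used bcl2fastq 2.20.0.422, cutadapt 1.18, TopHat2 2.0.13 and Cuffdiff 2.2.1 with mouse build mm10 (the methods name rat rn5, but the gene names are mouse ones), and deposited 1 column per library. The deposited values were read as FPKM, made by the authors with Cuffdiff, although no column names its unit. How libraries were normalized, which annotation was used and whether counting used strand is not given in the sources used here. FPKM holds no counts. Low values gave an estimate of depth: 68.1% of 3753 values lay within 0.05 of a whole number of fragments, at 37.6 to 45.9 fragments per FPKM and kb in untreated and 20.8 to 32.2 in LPS-treated libraries, which is an estimate and was not used in a test.

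A gene was tested if 3 or more libraries held 1 FPKM or more (10581 genes). With limma 3.58.1 in R 4.3.3, the 4 groups were fitted on log2(FPKM + 1), with a mean-variance trend. Fold changes are on this scale, which understates changes of low genes. A call needed a change above 2-fold, a p under 0.05 and an FDR (Benjamini-Hochberg over all genes tested) under 0.1. The code was tested on simulated data. The 10 genes and all lists were chosen with earlier results of these data known. All 10 are named in each comparison, and per list and comparison the 2 called genes with the largest change are named. Adgre1 is listed under its older symbol Emr1, and Ly6g of the neutrophil list was not matched. Some genes are not reported here, and the list counts leave them out.

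Replicate numbers are shared by the groups. Deviations from group means of libraries with 1 number were correlated over 3646 genes with 10 FPKM or more in every library. The r was 0.33, 0.37 and 0.46 between untreated WT and Pim1-/- cells and 0.43, 0.54 and 0.68 between the conditions in Pim1-/- cells. Libraries with different numbers were not correlated, so whether the numbers pair the groups was not tested. In the other pairs of groups at least 1 of the 3 was 0.1 or lower, although single values reached 0.49 and 0.52.

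Alternatives were a pseudocount of 0.1, no filter, a stricter filter (5 FPKM), quantile normalization, median-ratio scaling, the same FPKM sum in every library, only the groups compared, the replicate number as a block, limma without a trend, FDR under 0.05 without a fold threshold, and leaving out each library. Gene positions are from GENCODE M21 (GRCm38), and promoter sequences and starts from RefSeq (GRCm38.p6). Tables and plots were made with matplotlib 3.10.9, numpy 2.4.6, pandas 2.3.3 and Python 3.11.15.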

Additional observations from a re-analysis of the deposited data

Results flagged for a closer look

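In 6 of the 10 genes the response to LPS differed between Pim1-/- and WT cells by a test of the difference itself (limma, FDR under 0.05), as it did in 62.9% of all genes tested. The difference, Pim1-/- minus WT on the log2 scale, was 1.71 for Abca1 (adjusted p = 1.5e-10), where the change was 1.24 in Pim1-/- and −0.47 in WT cells, and 1.21 for Abcg1 (adjusted p = 7.5e-09), where it was −0.02 and −1.23. It was 0.64 for Mylip (adjusted p = 2.3e-06), 0.63 for Pparg (adjusted p = 3.2e-05), −0.58 for Lpl (adjusted p = 2.5e-06) and −0.29 for Nr1h3 (adjusted p = 0.00804). Leaving out each library in turn, the difference ran from 1.66 to 1.75 for Abca1 and from 1.17 to 1.27 for Abcg1.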

How the results depend on the processing

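Between the genotypes, each of the 10 genes kept its direction under every alternative, and the calls of Apoe, Pltp and Abca1 (untreated) and of Apoe and Pltp (LPS) held in all of them. Ratios to macrophage markers were not among these alternatives. On them, the untreated direction of the genes other than Apoe, Pltp and Abca1 depended on the marker, as described above. In the comparison of the genotypes after LPS, Abcg1 became a call, at 1.04, with libraries set to the same sum. LPS effects depended on the scale. With libraries set to the same sum, members called in WT went from 3 to 5, with Abca1 at −1.21 and Pltp at −1.0 added. Nr1h2 reversed to −0.19 and Nr1h3 to −0.03, and Srebf1, at 0.00 as deposited, went to −0.75. Under that scaling the median of all genes was itself −0.67 in WT and −0.58 in Pim1-/- cells. In Pim1-/- cells the same scaling reversed Nr1h2 (−0.10), Nr1h3 (−0.16), Apoe (−0.53) and Lpl (−0.34), took Abca1 to 0.72, under 2-fold, and added Mylip (−1.24). Quantile normalization reversed Nr1h2 (−0.22) and Lpl (−0.38) in WT and Apoe (−0.60) and Lpl (−0.54) in Pim1-/- cells. It also took Srebf1 from 0.00 to −0.18 and added Pltp (−1.39) in WT. For the difference in LPS response, Nr1h2 reversed to 0.28 under quantile normalization and 0.09 at the same sum, and Pim1 to 0.21 under quantile normalization. Without a fold threshold, at an FDR under 0.05, 10, 10, 8, 8 and 6 of the 10 genes passed in the comparisons of untreated genotypes, LPS-treated genotypes, LPS in WT, LPS in Pim1-/- cells and the difference in response, and 7904, 8194, 9453, 8954 and 6657 of all genes. A pseudocount of 0.1 FPKM gave 1442 genes between the genotypes after LPS, against 916, and 1075 for the difference in response, against 706. Leaving out each library kept the number of the 10 genes called in every comparison and turned the sign of values near 0 alone, with ranges from −0.03 to 0.03 for Srebf1 (LPS in WT), −0.06 to 0.04 for Abcg1 and −0.10 to 0.04 for Pltp (LPS in Pim1-/- cells) and −0.14 to 0.01 for Nr1h2 (difference in response). The replicate block changed no call of the 10 genes and gave 358 lower and 466 higher genes between the untreated genotypes, against 357 and 466. The cause of these shifts was not tested. Depth limits the precision least for Apoe and most for Pparg after LPS.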
